A study of Homo sapiens with 12 samples.

Results

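A set of 8 long noncoding RNA genes was followed across METTL5 wild-type and METTL5 knockout liver cancer cells: MALAT1, NEAT1, TUG1 and KCNQ1OT1, whose RNAs act mainly in the nucleus, and H19, HULC, PVT1 and MEG3, which are studied in liver cancer. They were chosen by name from the 58884 genes of the table. All 8 were found, 7 by symbol and HULC by its gene identifier alone, and 7 of the 8 passed the filter on low counts, MEG3 being the exception. METTL5 is a methyltransferase that adds an m6A mark to the RNA of the small ribosomal subunit. RNA was sequenced from HCC-LM3, a hepatocellular carcinoma line of high metastatic capacity, and from Huh-7, a hepatocellular carcinoma line derived from a well differentiated tumour. Each line was studied as untreated cells of genotype WT and as cells infected with a METTL5 sgRNA, genotype METTL5-KO, with 3 libraries in each of the 4 groups and 12 in all. Neither a control sgRNA nor a clone is named for any group, so infection and loss of METTL5 cannot be told apart. The replicates are numbered but not described as separate cultures, so the p-values given here reflect library-to-library spread that may be technical only.

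Long noncoding RNAs are transcripts that work as RNA, often by holding proteins at a place in the nucleus or by silencing genes near where they are made. MALAT1 gathers in nuclear speckles, where splicing factors are stored, and NEAT1 is the scaffold of paraspeckles, nuclear bodies that retain proteins and RNAs. KCNQ1OT1 and H19 come from imprinted regions, in which the copies inherited from the mother and the father are used differently, and H19 and HULC are known for high levels in subsets of liver tumours.

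MALAT1 and NEAT1 share an unusual end. Neither transcript, in its long form, carries a poly(A) tail made in the common way: RNase P cuts the RNA, and U-rich stretches fold around an A-rich tract to form a stable helix that shields the cut end. The last bases before that cut are printed because they set these 2 RNAs apart from the other members. The capitals mark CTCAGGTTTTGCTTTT, which holds a U-rich stretch, and AAAAAGCAAAA, an A-rich tract, both written as DNA: these are the longest stretches that the last 100 bases of NEAT1 share with the end of MALAT1. The first line is bases 8256 to 8355 of the MALAT1 transcript of 8708 bases, and the second is bases 22644 to 22743, the end of the NEAT1 transcript of 22743 bases, both in the RNA's own direction from GENCODE 29.
MALAT1: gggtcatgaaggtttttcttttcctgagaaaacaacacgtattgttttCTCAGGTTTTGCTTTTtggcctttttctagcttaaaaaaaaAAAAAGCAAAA
NEAT1: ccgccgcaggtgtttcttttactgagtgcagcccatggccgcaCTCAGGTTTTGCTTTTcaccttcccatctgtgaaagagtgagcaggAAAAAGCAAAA
The stretches lie 25 bases apart in MALAT1 and 30 in NEAT1. Searched on the RNA's own strand in the longest transcript of each of 14915 long noncoding RNA genes, both motifs within 100 bases were found in 2 transcripts (0.0134%), those of MALAT1 and NEAT1, from which they were taken. None of the other 6 members held the pair. A match describes the letters alone.

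H19 is also the host of a microRNA. The 2 mature forms, from RefSeq on GRCh38.p14, are shown with the seed (bases 2 to 8) in capitals, since targets are recognised mainly through the seed and these forms share none.
hsa-miR-675-5p: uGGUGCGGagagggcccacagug
hsa-miR-675-3p: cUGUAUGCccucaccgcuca
They lie on the minus strand at chr11:1996800-1996822 and chr11:1996768-1996787, at positions 1054 and 1089 of the H19 transcript of 2348 bases. The gene row of the hairpin, MIR675, was at 0 counts in all 12 libraries, so H19 was measured here through its long transcript.

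Positions are given on GRCh38 from GENCODE 29. The file names no build, and 99.54% of its gene identifiers are in that annotation. Most members treated here as nuclear lie on chromosome 11. NEAT1 (ENSG00000245532) spans chr11:65422774-65445540 on the plus strand and MALAT1 (ENSG00000251562) follows it at chr11:65497688-65506516 on the same strand. H19 (ENSG00000130600) lies at chr11:1995176-2001470 on the minus strand. KCNQ1OT1 (ENSG00000269821) is an unspliced antisense RNA of 91667 bases at chr11:2608328-2699994, inside the span of the potassium channel gene KCNQ1, and 121 of its bases overlap KCNQ1 exons on the opposite strand. The other members are PVT1 (ENSG00000249859) at chr8:127794533-128101253, MEG3 (ENSG00000214548) at chr14:100779410-100861031 and TUG1 (ENSG00000253352) at chr22:30969245-30979395, all on the plus strand. The HULC identifier, ENSG00000285219, carries another name in the file, and in GENCODE 29 it is a plus-strand locus of 858566 bases with 113 transcripts at chr6:8435568-9294133. RefSeq places HULC in 1588 bases at chr6:8652269-8653856, so the counts of this row belong to the locus and cannot be given to HULC alone. It is called the HULC locus from here on.

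The labels held for METTL5: its count was 268 to 327.01 in HCC-LM3 WT, 169.17 to 258.02 in Huh-7 WT and 0 in all 6 knockout libraries. Set against a floor of 3 counts in a library, the knockouts were at least 86.9-fold lower than wild type in HCC-LM3, and in Huh-7 at least 27.2-fold. Library totals ran from 17495280 to 26415554 counts. Levels are CPM (library-scaled counts) after TMM scaling, which corrects totals for a few very abundant genes; the TMM factors were 1.06 to 1.51 in the other 9 libraries and 0.491 to 0.51 in Huh-7 KO. HCC-LM3 WT replicate 1 stood apart: the mean chi-square per gene was 34.9 and 28.8 against its group's other libraries, which differed from each other by 4.01. The hepatocyte markers ALB, APOA1, APOB, TTR, SERPINA1 and AFP were nearly absent from HCC-LM3, with a summed level of 0 to 0.172 CPM and APOB and TTR at 0 throughout. They summed to 12258 to 13180 CPM in Huh-7 WT and 18839 to 19503 CPM in Huh-7 KO. Between the same groups, epithelial markers went from 11944 to 12030 CPM summed to 35681 to 37248 CPM, and cholangiocyte markers from 538 to 571 CPM to 1651 to 1755 CPM. Fibroblast markers went from 26.7 to 30.7 CPM to 8.13 to 10.4 CPM, and endothelial markers from 13.2 to 13.9 CPM to 5.71 to 6.04 CPM. These sums are TMM-scaled, and the factors were 0.491 to 0.51 in Huh-7 KO but 1.06 to 1.10 in Huh-7 WT. The size of these shifts therefore rests on the scaling. With library totals the hepatocyte markers would be lower, not higher, in Huh-7 KO. The part of these shifts in the results was not tested. In bulk RNA, a lower level in every cell and fewer cells that hold the RNA cannot be told apart.

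The wild-type lines used different members of the group. Compared per length as TPM (deposited transcript abundance corrected for length), H19 (212 ± 20.4, SD, n = 3) and MALAT1 (192 ± 40.9) led in HCC-LM3 WT, with ranges that overlapped. NEAT1 (105 ± 41.8), PVT1 (42.4 ± 11.4) and TUG1 (9.20 ± 3.58) followed, each below the last without overlap. The HULC locus (0.327 ± 0.0513) and KCNQ1OT1 (0.09 ± 0.02) were under 1 TPM, and MEG3 was at 0.01. Among 14915 long noncoding RNA genes, H19 ranked 11, MALAT1 12, NEAT1 21 and PVT1 35 by mean TPM in HCC-LM3 WT.

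In Huh-7 WT, MALAT1 led alone at 309 ± 18.8 TPM (SD, n = 3) and ranked 9. NEAT1 came next at 7.42 ± 1.02 TPM, and PVT1 (5.15 ± 1.08) and the HULC locus (4.94 ± 0.646) had overlapping ranges. TUG1 stood at 4.16 ± 0.158, KCNQ1OT1 at 1.05 ± 0.129, H19 at 0.45 ± 0.132 and MEG3 at 0.00333. H19, a leading long noncoding RNA of HCC-LM3, thus ranked 1459 in Huh-7.

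Tested between the wild types with edgeR, 3 of 7 members were higher in HCC-LM3 and 3 were higher in Huh-7 at an adjusted p under 0.05, where 82.8% of all 16537 genes tested were called, 41.8% higher in HCC-LM3 and 41.0% lower. The values of 6 of the 7 members, all but TUG1, did not overlap between the wild types, as was so for 82.5% of genes. H19 was 7.73 higher on the log2 scale in HCC-LM3 (SE 0.16, adjusted p = 8.52e-30), and its counts were 4205.37 to 5667.99 there and 8 to 20 in Huh-7 WT. PVT1, an RNA transcribed beside the MYC oncogene, was 3.24 higher (SE 0.158, adjusted p = 3.8e-19), and NEAT1 was 1.76 higher (SE 0.22, adjusted p = 3.26e-05). KCNQ1OT1 differed by -4.32 (SE 0.169, adjusted p = 6.99e-16) and the HULC locus by -3.84 (SE 0.311, adjusted p = 2.99e-13), both higher in Huh-7. Those 5 differences stayed called under every alternative tried. MALAT1 differed by -0.96 (adjusted p = 0.0119), but the call ended with library totals in place of TMM (-0.53, adjusted p = 0.111) and without HCC-LM3 WT replicate 3 (-0.84, adjusted p = 0.0529). TUG1 was the member that was not called (0.44, SE 0.198, adjusted p = 0.055); without HCC-LM3 WT replicate 1 its difference was 0.73 (adjusted p = 2.17e-06), and it was also called without each HCC-LM3 KO library in turn (adjusted p of 0.0395, 0.0307 and 0.0204).

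**Figure D1:**
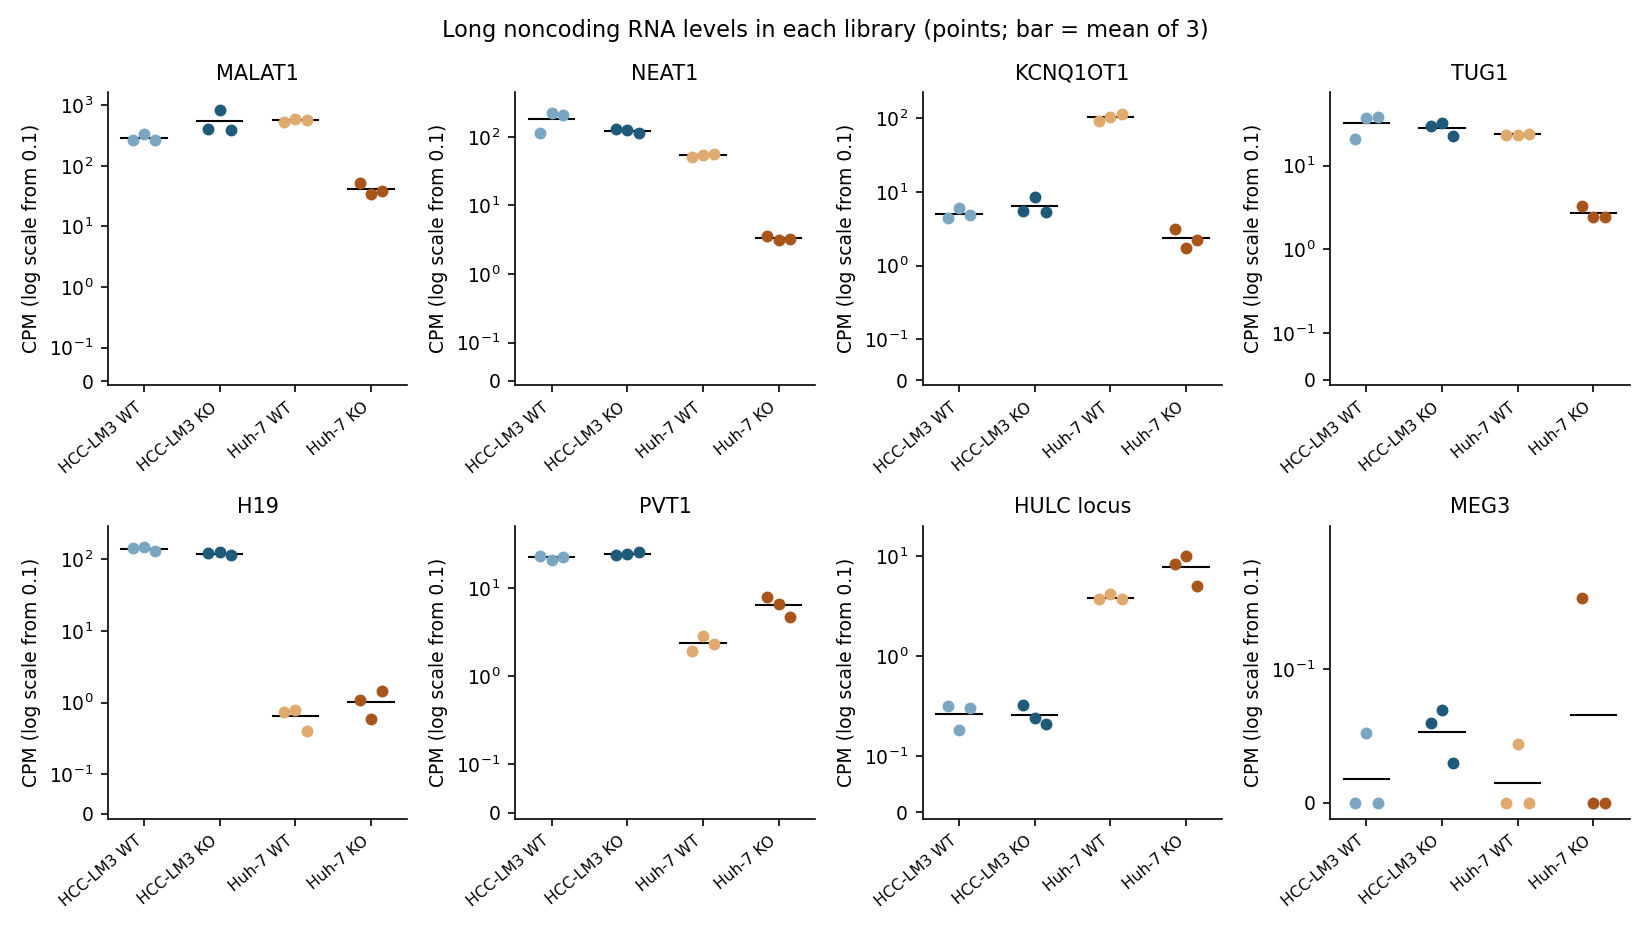
Levels of the 8 long noncoding RNAs in CPM (TMM-scaled, on an axis that is logarithmic above 0.1) in each library, as points, with the mean of the 3 libraries as a bar. MALAT1, NEAT1, KCNQ1OT1 and TUG1 are lower in all 3 Huh-7 KO libraries than in every Huh-7 WT library, H19 and PVT1 are high in HCC-LM3, and MEG3 is near 0 throughout.

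The 4 RNAs grouped here as nuclear, which are also the longest members tested, parted by line. Location in the cell was not measured for any member. In Huh-7 KO all 4 were far below wild type without overlap, by 3.11 (TUG1) to 5.40 (KCNQ1OT1) on the log2 scale, while in HCC-LM3 KO none passed as lower and MALAT1 was higher. Of the 7 members tested, 4 were lower and 2 higher in Huh-7 KO, beside 75.0% of all genes called there, 43.2% lower and 31.7% higher. In HCC-LM3 KO 1 of 7 was called, as higher, beside 26.8% of all genes, 14.0% higher and 12.9% lower. Knockout and wild-type values did not overlap for 6 of 7 members in Huh-7, beside 76.5% of genes, and for 3 of 7 in HCC-LM3, beside 38.7%. Among 1816 long noncoding RNA genes the shares called were 57.0% in Huh-7 and 7.54% in HCC-LM3.

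MALAT1 stood at 532, 598 and 560.4 CPM in the Huh-7 WT libraries and at 51.5, 34.6 and 38.2 CPM in Huh-7 KO. Every knockout library was far below the lowest wild-type library, and the counts behind them were 11066 to 14534 against 297 to 522. The log2 change was -3.76 (SE 0.328, edgeR adjusted p = 4.57e-06). In HCC-LM3, MALAT1 was at 271, 331 and 268 CPM in WT and at 401, 826 and 397 CPM in KO. The HCC-LM3 groups did not overlap, but KO replicate 2 lay far above the other libraries and set most of the spread (541 ± 246 CPM against 290.2 ± 35.3, SD, n = 3). The HCC-LM3 change was 0.90 (SE 0.284, edgeR adjusted p = 0.0476). This call was close to the threshold and ended in 15 of 23 alternatives, among them leaving out HCC-LM3 WT replicate 1, 2 or 3 (adjusted p of 0.0983, 0.0932 and 0.157) or any Huh-7 library (0.0514 to 0.0693). Without HCC-LM3 KO replicate 2 the change was 0.45 (adjusted p = 0.00979), and its direction held in all 23.

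NEAT1 was at 51.2, 54.8 and 56.5 CPM in Huh-7 WT and at 3.55, 3.15 and 3.30 CPM in Huh-7 KO, groups that were each tight and far apart. The log2 change was -4.02 (SE 0.331, edgeR adjusted p = 1.35e-06), resting on 27 to 36 counts in the knockout libraries. In HCC-LM3, NEAT1 stood at 113, 226 and 210.1 CPM in WT and at 131, 125 and 114 CPM in KO. WT replicate 1, the library that stood apart, lay just under the KO range, while WT replicates 2 and 3 lay well above it. The change there was -0.57 (SE 0.212, adjusted p = 0.0765), and without WT replicate 1 it was -0.84 (adjusted p = 9.81e-09). It was also called with library totals (-0.75, adjusted p = 0.0425), with the GC and length offsets described below (-0.50, adjusted p = 0.0434), with DESeq2 (-0.55, adjusted p = 0.0102) and with no filter on low counts (-0.58, adjusted p = 5.68e-06).

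KCNQ1OT1, which silences its neighbours on the paternal chromosome, was at 90.0, 103 and 113 CPM in Huh-7 WT and at 3.15, 1.75 and 2.20 CPM in Huh-7 KO. Counts of 2225.84 to 2460.89 gave way to counts of 15.03 to 32.26, the widest gap of the members. The log2 change was -5.40 (SE 0.217, edgeR adjusted p = 2.01e-15). In HCC-LM3 it was low in both groups, at 4.37, 6.03 and 4.83 CPM in WT and 5.46, 8.62 and 5.35 CPM in KO, with overlapping values (log2 change 0.34, SE 0.175, adjusted p = 0.172). With the offsets, that change was 0.40 (adjusted p = 0.046), and without HCC-LM3 KO replicate 2 it was 0.07 (adjusted p = 0.813).

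TUG1, a nuclear RNA that has been reported to bind chromatin-silencing complexes, was at 23.5, 23.3 and 24.0 CPM in Huh-7 WT and at 3.25, 2.45 and 2.42 CPM in Huh-7 KO. The wild-type values were nearly equal and lay far above all knockout values. The log2 change was -3.11 (SE 0.295, edgeR adjusted p = 3.62e-07). In HCC-LM3, TUG1 was at 20.6, 37.4 and 37.8 CPM in WT and 30.0, 31.8 and 22.7 CPM in KO, and the groups overlapped through WT replicate 1. The change was -0.18 (SE 0.194, adjusted p = 0.549), or -0.42 (adjusted p = 0.00409) without that library. It was -0.06 without WT replicate 2, -0.06 without WT replicate 3 and -0.05 without KO replicate 3.

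H19, an imprinted RNA of fetal liver, was at 145, 148 and 128 CPM in HCC-LM3 WT and at 120.4, 125 and 115 CPM in HCC-LM3 KO. Every knockout library lay below every wild-type library, by a small margin, and the log2 change of -0.23 (SE 0.0947) did not pass the test (edgeR adjusted p = 0.0698). H19 passed without HCC-LM3 WT replicate 3 (-0.30, adjusted p = 0.0423) and without Huh-7 WT replicate 2 or 3 (adjusted p of 0.0475 and 0.049). It passed with library totals (-0.38, adjusted p = 0.00391) and with the offsets (-0.54, adjusted p = 2.06e-05) too. In Huh-7 it rested on 20, 18 and 8 counts in WT and 11, 5 and 13 in KO, which overlapped. The change in Huh-7 was 0.66 (SE 0.347, adjusted p = 0.0843). It was 0.92 without Huh-7 KO replicate 2 (adjusted p = 0.0249) and 1.10 with DESeq2 (adjusted p = 0.00297), and turned to -0.44 with library totals.

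PVT1 was at 23.2, 20.9 and 22.7 CPM in HCC-LM3 WT and at 23.5, 24.4 and 25.6 CPM in HCC-LM3 KO. The groups lay side by side without overlap, and the change of 0.14 (SE 0.125) was not called (edgeR adjusted p = 0.448). In Huh-7, PVT1 was at 1.94, 2.85 and 2.33 CPM in WT and at 7.99, 6.64 and 4.73 CPM in KO. All knockout values were above all wild-type values (log2 change 1.46, SE 0.193, adjusted p = 3.11e-08). The counts themselves were alike, 46 to 65 in WT and 43 to 81 in KO, so this rise rests on the scaling. With library totals the change was 0.34 (adjusted p = 0.111), and with limma on TPM it was 0.15 (adjusted p = 0.897).

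The HULC locus was at 3.70, 4.16 and 3.70 CPM in Huh-7 WT and at 8.28, 10.1 and 5.06 CPM in Huh-7 KO. The groups did not overlap and the log2 change was 1.02 (SE 0.238, edgeR adjusted p = 0.000264), but this direction also rests on the scaling. It was 2.40 with the GC and length offsets (adjusted p = 4.47e-09) and 1.46 with DESeq2 size factors (adjusted p = 1.21e-06). It turned to -0.09 with library totals (adjusted p = 0.745) and to -0.60 with limma on log2(TPM + 0.5) (adjusted p = 0.017). In HCC-LM3 the locus held 7 to 10.99 counts in each library, the groups overlapped, and the change was -0.02 (SE 0.439, adjusted p = 1).

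MEG3, a maternally expressed RNA with tumour-suppressing activity in liver cells, was not detectable above the floor. Its count was 0 to 2 in every library, 9.87 summed over all 12, so it did not pass the filter on low counts and no comparison is given.

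The knockout effects were tested against each other with an interaction term, HCC-LM3 effect minus Huh-7 effect, in which 61.6% of all genes were called, 37.7% higher and 23.9% lower. Of the 7 members tested, 6 passed. KCNQ1OT1 differed by 5.74 (SE 0.286, edgeR adjusted p = 2.84e-13), MALAT1 by 4.66, NEAT1 by 3.44 and TUG1 by 2.93, all with the lower value in Huh-7 KO. PVT1 differed by -1.32 (SE 0.229, adjusted p = 6.79e-06) and H19 by -0.89 (SE 0.362, adjusted p = 0.0325), the opposite direction. The call of the H19 difference ended in 9 of 22 alternatives. It was not called without Huh-7 KO replicate 1 or 3 (adjusted p of 0.0909 and 0.246) or Huh-7 WT replicate 3 (0.109) and turned to 0.06 with library totals, and that of PVT1 turned to 0.52 with limma on TPM. The HULC locus was not called (-1.04, SE 0.504, adjusted p = 0.0726), although it was called without HCC-LM3 WT replicate 2, HCC-LM3 KO replicate 1 or Huh-7 KO replicate 3 (adjusted p of 0.0321, 0.0451 and 0.0215).

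**Figure D2:**
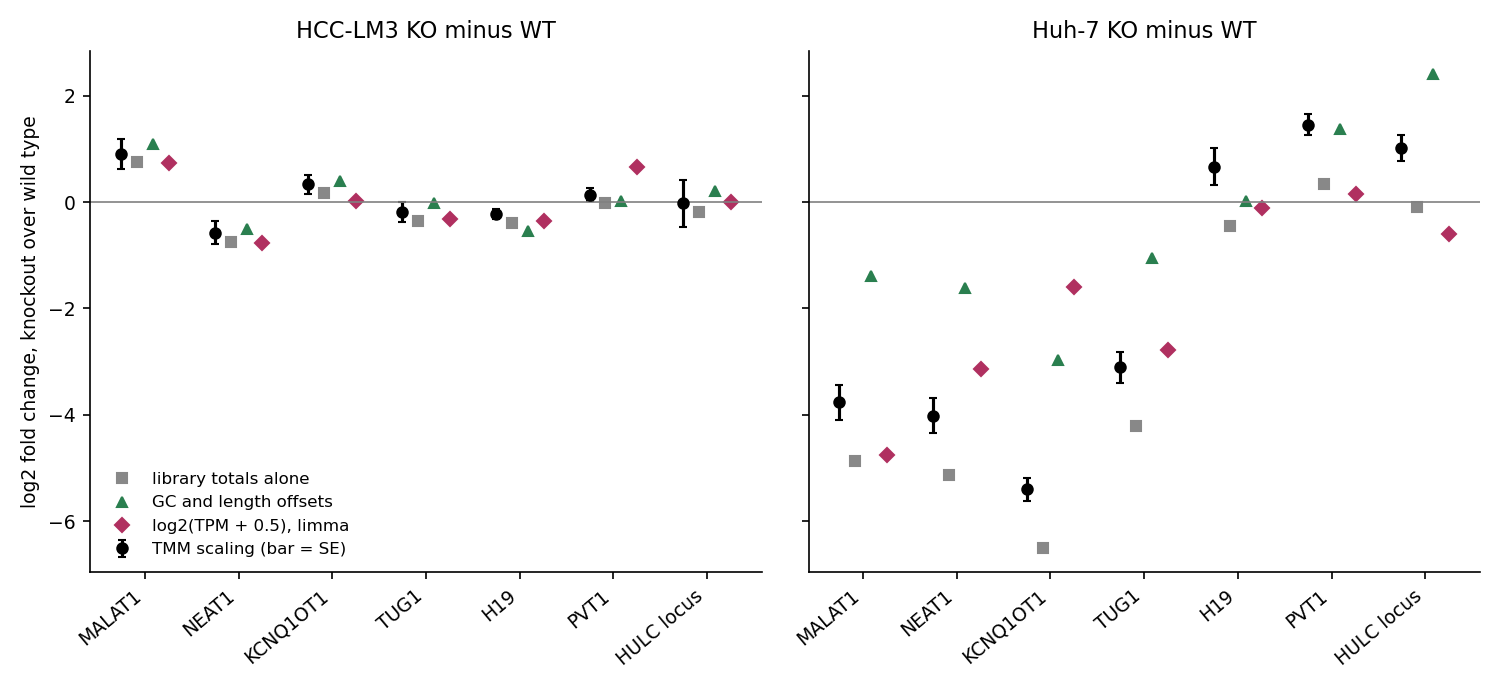
Knockout over wild type as a log2 fold change (vertical axis) for the 7 members tested, in HCC-LM3 (left) and Huh-7 (right), with TMM scaling (black, bar = SE) and under other scalings. In Huh-7 the 4 nuclear RNAs are below 0 under all 4 settings, between -1.06 and -6.51, whereas the HULC locus and H19 change sign.

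Gene length moved with these results in Huh-7. The 4 nuclear RNAs are the longest members tested, with deposited lengths of 7469 (TUG1), 8708 (MALAT1), 22743 (NEAT1) and 91667 bases (KCNQ1OT1), while H19, PVT1 and the HULC locus have 2348, 2444 and 3568 bases. Among 3284 genes of 5000 bases or more the median change in Huh-7 KO was -1.94 and 78.1% were lower, and all 4 members of that length were lower, with a median of -3.89. Among 13253 shorter genes the median was 0.00 and 34.6% were lower, and 0 of 3 members were. All 4 lay below the median of their length class. TUG1 (-3.11) compares with a median of -1.75 and a 5% quantile of -3.73 over genes of 5000 to 8000 bases. For genes above 8000 bases the median was -2.32 and the 5% quantile -4.04. MALAT1 (-3.76) and NEAT1 (-4.02) lay just above that quantile and KCNQ1OT1 (-5.40) below it. Among 153 long noncoding RNA genes of 5000 bases or more the median was -1.30 and 54.2% were lower. The 5% quantile of long noncoding RNA genes was -6.415 at 5000 to 8000 bases and -5.376 above 8000. By these quantiles TUG1, MALAT1 and NEAT1 lay above and KCNQ1OT1 just below.

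Offsets for the trend of change with GC content and length were set gene by gene, from a fit on protein-coding genes. Above 8000 bases the median Huh-7 KO change was -2.35 for protein-coding genes and -1.52 for long noncoding RNA genes. Below 500 bases it was 1.98 and 0.505, so the offsets may not match the trend of long noncoding RNA genes. With the offsets, the 4 nuclear RNAs remained lower in Huh-7 KO but by less. KCNQ1OT1 was at -2.96 (adjusted p = 2.92e-12), NEAT1 at -1.62 (0.001), MALAT1 at -1.38 (0.00241) and TUG1 at -1.06 (0.000651). The length entered was capped at 15866 bases, so NEAT1 and KCNQ1OT1 were corrected as shorter genes than they are. In HCC-LM3 KO the median change was -0.05 over genes of 5000 bases or more and 0.02 over shorter ones. The members showed no order by length there. GC content moved with the change in both lines. From genes under 40% GC to those of 60% or more, the median went from -0.38 to 0.30 in HCC-LM3 KO. In Huh-7 KO it went from -1.83 to 0.74. The longest transcripts of the 4 nuclear RNAs have 40.3 to 44.1% GC, and that of H19 has 63.4%. Beyond these offsets, the part of length and GC content in the Huh-7 result was not tested.

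**Figure D3:**
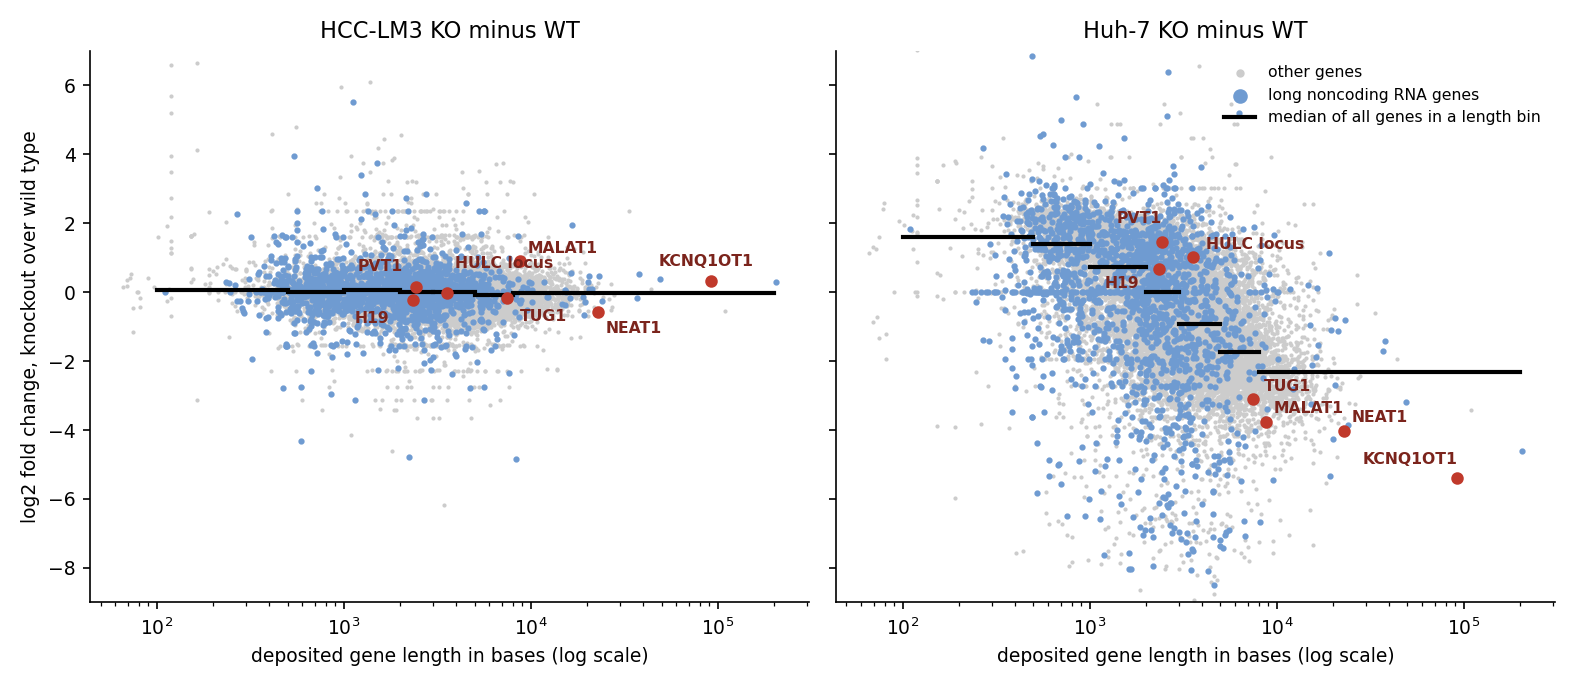
Log2 fold change of knockout over wild type against deposited gene length (log scale) for every gene tested, in HCC-LM3 (left) and Huh-7 (right), with long noncoding RNA genes in blue, members in red and the median of each length bin as a black line; 2 and 13 genes lie outside the plotted range. In Huh-7 the median falls with length, from 1.59 below 500 bases to -2.32 above 8000, and the 4 nuclear RNAs lie below it.

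The members' share of all counts amounts to scaling by library totals, and MALAT1 carries most of the summed counts in Huh-7 WT. Summed, the 8 members made up 0.0807 ± 0.00609% of counts in Huh-7 WT and 0.00324 ± 0.000571% in Huh-7 KO (SD, n = 3 each). In HCC-LM3 they made up 0.0976 ± 0.0192% in WT and 0.11 ± 0.0351% in KO, with overlapping ranges. All long noncoding RNA genes together did not decline in Huh-7: they held 1.22 ± 0.109% of counts in WT and 1.42 ± 0.0227% in KO. MALAT1 alone went from 4.97 ± 0.467% of the long noncoding RNA counts to 0.145 ± 0.033%.

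The counts and TPM of a gene together show the transcript length that the authors' quantification used, because TPM divides by it. Scaled on genes with 1 annotated transcript, of which 83.6% to 89.0% fell within 25% of their own length, NEAT1 had an implied length of 3055 ± 65 bases in HCC-LM3 WT and 3232 ± 208 in HCC-LM3 KO (SD, n = 3). In Huh-7 WT it was 7806 ± 1048 bases, with no overlap. NEAT1 is annotated with a transcript of 22743 bases, the form that builds paraspeckles, and with shorter forms of 512 to 3524 bases. The HCC-LM3 values sit among the short forms and the Huh-7 WT values above them. How reads common to several forms were divided is not given in the sources used here. MALAT1 gave 2608 ± 64 bases in HCC-LM3 WT, 1932 ± 187 in Huh-7 WT and 1299 ± 131 in Huh-7 KO, all under its transcript of 8708 bases. TUG1 gave means of 5999 to 6162 bases in the 3 groups that could be computed, close to each other. PVT1 ranged from 82 bases in Huh-7 KO replicate 2 to 1035 in HCC-LM3 WT, which is why its TPM in that knockout group ran from 1.8 to 27.28 while its counts ran from 43 to 81.

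The imprinted members were set against the genes of their own loci. IGF2, a fetal growth factor that shares enhancers with H19 but is used from the other parental copy, ran opposite to it between the lines. IGF2 counts were 0 to 1 in the 6 HCC-LM3 libraries, where H19 had 3620.95 to 5667.99, and 6440.63 to 8138.94 in Huh-7 WT, where H19 had 8 to 20. In Huh-7 KO, IGF2 counts were 513.11 to 671.71 and its level fell by 2.19 on the log2 scale (SE 0.102, edgeR adjusted p = 7.54e-19), beside overlapping H19 values.

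KCNQ1 showed the same opposition to its antisense RNA. KCNQ1 counts were 1272 to 1571 in HCC-LM3, where KCNQ1OT1 had 138.39 to 249.67, and 0 to 1 in all 6 Huh-7 libraries. KCNQ1 thus remained at 0 to 1 counts in Huh-7 KO while KCNQ1OT1 dropped. Whether counting used strand is not given in the sources used here, and reads from the antisense pair cannot be told apart without it, but in Huh-7 WT at least 2225.84 counts of KCNQ1OT1 stood beside at most 1 of KCNQ1.

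CDKN1C, a cell cycle inhibitor that KCNQ1OT1 silences in cis, was at 57.1 ± 4.34 CPM in HCC-LM3 WT and 90.1 ± 8.08 CPM in HCC-LM3 KO, a log2 change of 0.66 (SE 0.0983, edgeR adjusted p = 1.09e-05), or 0.34 with the offsets (adjusted p = 0.00233). In Huh-7, CDKN1C was at 4.93 CPM in WT and 10.1 CPM in KO, a change of 1.02 (adjusted p = 1.54e-07), on 92 to 143 and 85 to 102 counts. That Huh-7 rise rests on the scaling, since it was -0.09 with library totals and 0.12 with the GC and length offsets. SLC22A18, a membrane transporter of the same domain, rose in both lines (0.74 in HCC-LM3, adjusted p = 1.53e-06, and 1.61 in Huh-7, adjusted p = 1.17e-16). Both calls held with library totals and with the offsets, the latter at 0.45 and 0.49. Other listed neighbours did not all do so. PHLDA2 rose in HCC-LM3 (0.34) and Huh-7 (1.92) but was not called with the offsets (0.04 and 0.16). In Huh-7 KO, CD81 turned from 0.78 to -1.02 with the offsets, and NAP1L4 fell (-0.55, adjusted p = 4.79e-06).

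At the MEG3 locus, DLK1, a paternally used gene of hepatic progenitors, had 1 to 2 counts in HCC-LM3, 1440 to 2148 in Huh-7 WT and 1172 to 1406 in Huh-7 KO. The maternal RNA MEG3 was at 0 to 2 counts in all 12 libraries beside it. MYC, upstream of PVT1, changed by 0.10 in HCC-LM3 KO (adjusted p = 0.471) and by -0.53 in Huh-7 KO (adjusted p = 2.83e-05), opposite to the sign of PVT1 there, and was at -0.09 with DESeq2 size factors (adjusted p = 0.471). It was at -1.63 with library totals (adjusted p = 1.41e-12) and at -1.5 with the offsets (adjusted p = 3.12e-14).

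**Figure D4:**
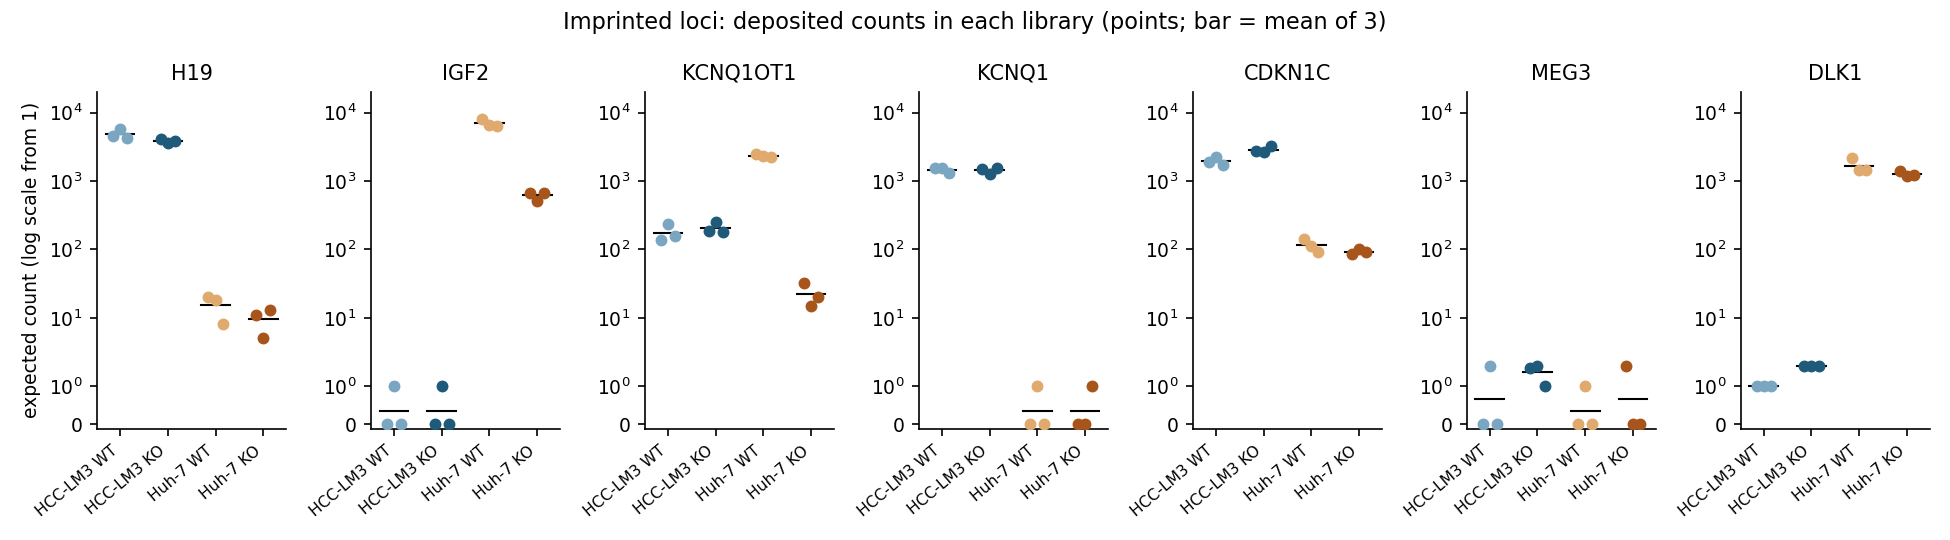
Deposited expected counts (log scale above 1) of the imprinted members and of genes at the same loci in each library, as points, with the mean of the 3 libraries as a bar. H19 and KCNQ1 are high in HCC-LM3 and at most 20 counts in Huh-7, while IGF2 and DLK1 are at most 2 counts in HCC-LM3 and high in Huh-7 WT.

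Of 23 tested neighbours of the members, 12 were higher and 0 lower in HCC-LM3 KO, beside 14.0% higher and 12.9% lower of all genes. Their median change was 0.33 beside 0.00 over all genes. The 7 members tested had a median of -0.02. The count of neighbours was 7 higher and 2 lower with library totals and 4 and 1 with the offsets. SMTN, a smooth muscle cytoskeleton gene near TUG1 (0.75, SE 0.0904), and LTBP3, a TGF-beta binding protein gene near MALAT1 (0.57, SE 0.128), were among those that rose, and LTBP3 did not pass with the offsets (0.21, adjusted p = 0.188). In Huh-7 KO 11 neighbours were higher and 7 lower, beside 31.7% higher and 43.2% lower of all genes. With library totals 5 were higher and 12 lower, and with the offsets 5 and 9. MORC2, which lies beside TUG1, fell by 1.78 on the log2 scale (SE 0.113, adjusted p = 9.31e-16), as TUG1 did, and was at -0.83 with the offsets.

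Genes of paraspeckle proteins, which gather on NEAT1, were mostly lower in Huh-7 KO, as NEAT1 was. Of 27 tested, 20 were lower and 5 higher, beside 43.2% lower and 31.7% higher of all genes. Their median was -1.37 beside -0.30 over all genes. SFPQ, which stabilises NEAT1, fell by 2.31 on the log2 scale (SE 0.11, edgeR adjusted p = 1.25e-18), TAF15 by 3.29 (SE 0.167, adjusted p = 4.66e-18) and HNRNPM by 2.47 (SE 0.11, adjusted p = 3.12e-19). The count was 15 lower and 7 higher with the GC and length offsets, with a median of -0.42. In HCC-LM3 KO, where NEAT1 did not pass the test, 6 were lower and 4 higher, with a median of -0.05. Of all genes, 12.9% were lower and 14.0% higher there. With library totals 13 of the 27 were lower and 1 higher, but 2 were lower and 4 higher with the offsets. TARDBP, which binds NEAT1, changed by -0.48 there (SE 0.105, adjusted p = 0.000915), and with the offsets by -0.17 (adjusted p = 0.144).

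Genes of nuclear RNA decay and of the end processing that MALAT1 and NEAT1 pass through did not lean one way in Huh-7 KO with TMM scaling. Of 30 tested, 12 were lower and 11 higher, beside 43.2% lower and 31.7% higher of all genes. Their median was -0.06. The lean changed with the scaling. With library totals 19 were lower and 7 higher. With the offsets 9 were lower and 14 higher, and with DESeq2 size factors 10 were lower and 16 higher. MTREX, the helicase that feeds RNAs to the nuclear exosome, fell by 2.76 (SE 0.219, adjusted p = 2.78e-13) and was at -1.05 with the offsets. DIS3, an exosome nuclease, fell by 2.20 (SE 0.198, adjusted p = 6.38e-12), though with the offsets it was at 0.35 (adjusted p = 0.131). RPP21, a subunit of the RNase P that cuts both RNAs, rose by 2.09 (SE 0.111, adjusted p = 2.98e-17), by 0.98 with library totals and by 0.31 with the offsets. In HCC-LM3 KO 9 of 30 were lower and 2 higher, beside 12.9% lower and 14.0% higher of all genes. EXOSC6, an exosome subunit gene, had the largest called change there (-9.13, SE 1.19, edgeR adjusted p = 0.00106). It was at -9.52 with library totals and -8.88 with the offsets, and was not called in Huh-7 KO (-0.08, adjusted p = 0.862). EXOSC3 followed in HCC-LM3 KO at -0.71 (SE 0.121, adjusted p = 6.09e-05). METTL16, a protein known to bind the MALAT1 end structure, was singled out after its values were seen: it changed by -0.12 in HCC-LM3 KO (adjusted p = 0.436) and by -1.75 in Huh-7 KO (adjusted p = 3.26e-11), or -0.42 with the offsets (adjusted p = 0.0226).

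Of 24 other long noncoding RNAs listed for comparison with the nuclear members, 7 were higher and 8 lower in Huh-7 KO. Where these RNAs lie in the cell was not measured, and not all of them are nuclear. Of all genes 31.7% were higher and 43.2% lower, and 57.0% of long noncoding RNA genes were called in either direction. The split of the 24 was 6 and 15 with library totals and 10 and 2 with the offsets, which were fitted on protein-coding genes. NORAD, a long RNA that binds PUMILIO proteins, was among the lower ones (-2.32, SE 0.128, adjusted p = 3.17e-17), and was at -0.40 with the offsets. The short RNAs RPPH1 (3.33, adjusted p = 3.09e-05) and RN7SK (2.59, adjusted p = 0.000683) rose. With the offsets RPPH1 was at 0.97 (adjusted p = 0.0208) and RN7SK was not called (0.35, adjusted p = 0.496). In HCC-LM3 KO 0 of 24 rose and 2 fell, NORAD (-0.78, SE 0.0992) and DANCR (-0.43, SE 0.106). Of all long noncoding RNA genes 7.54% were called there, and of all genes 26.8%. MALAT1, by comparison, was higher in HCC-LM3 KO.

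Of 34 other long noncoding RNAs studied in liver cancer, 15 were higher and 8 lower in Huh-7 KO. In HCC-LM3 KO 1 was higher and 3 lower. Of all genes 31.7% were higher and 43.2% lower in Huh-7 KO, and 14.0% and 12.9% in HCC-LM3 KO. Of all long noncoding RNA genes 57.0% were called in Huh-7 KO and 7.54% in HCC-LM3 KO. With library totals the Huh-7 split was 6 and 14, and with the offsets from protein-coding genes it was 18 and 4. LINC00511 was the RNA that rose in HCC-LM3 KO (0.50, SE 0.13, adjusted p = 0.00449), and HOTAIR (-1.04), NORAD and UCA1 (-0.70) fell. H19, PVT1 and the HULC locus, the members studied in the same setting, were not called in HCC-LM3 KO.

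The genes whose log2 CPM over the 12 libraries ran most like each member were mostly protein-coding, as were 13878 of the 16537 genes tested. The libraries fall into 4 groups, so these correlations describe the group pattern and carry no test. SCD (r = 0.986), the fatty acid desaturase, was most like MALAT1: it stood at 788, 1032, 958 and 316 CPM in HCC-LM3 WT, HCC-LM3 KO, Huh-7 WT and Huh-7 KO, where MALAT1 stood at 290.2, 541, 564 and 41.4 CPM. PRKAR1A and ZFAND5 were most like NEAT1 (both r = 0.998), and ZNF621 (r = 0.997) and TRIM37 (r = 0.996) most like TUG1. PROS1, the gene of anticoagulant protein S, was most like KCNQ1OT1 (r = 0.993), and FBP1, a gluconeogenic enzyme gene, most like the HULC locus (r = 0.995), at 0.374 CPM in HCC-LM3 WT and 8.69 CPM in Huh-7 KO. DPY19L2P3 and ADK were most like H19 (both r = 0.998), and the long noncoding RNA genes EML2-AS1 and LINC01278 most like PVT1 (both r = 0.993).

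Levels per length in Huh-7 KO completed the picture of the members. MALAT1 kept the first place at 11.1 ± 2.80 TPM (SD, n = 3) but overlapped PVT1 at 10.8 ± 14.3. The HULC locus followed at 3.19 ± 1.10 TPM, H19 (0.403 ± 0.287) and NEAT1 (0.4 ± 0.0872) overlapped, and TUG1 was at 0.18 ± 0.07. MALAT1 thus went from rank 9 to rank 77 among long noncoding RNA genes, NEAT1 from 141 to 996 and TUG1 from 259 to 1457. In HCC-LM3 KO the order was MALAT1 (338 ± 154), H19 (166 ± 23.0), PVT1 (67.0 ± 13.5) and NEAT1 (57.9 ± 9.36), the last pair overlapping. The place of PVT1 rests on the length behind its TPM. Its counts were 708 to 858.13 in HCC-LM3 KO and 731.23 to 800 in HCC-LM3 WT. Its implied length was 567 ± 110 bases in HCC-LM3 KO and 929 ± 159 in HCC-LM3 WT.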

How the data were processed

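RNA was sequenced in 12 libraries, 3 in each of 4 groups taken from the sample labels. The table the authors deposited lists, per the file headers, an estimated (expected) count and a TPM value of 58884 genes for every library. Those deposited expected counts carry no scaling, and the authors' TPM values are corrected for length. The submitters' processing notes name Bowtie 0.12.2 with builds of mouse (mm8, mm9), although the identifiers are human; for the counting tool, strand setting and human build, nothing is stated in the sources used here. Reads shared by overlapping genes may be divided in ways not known.

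Rounded counts were tested with edgeR 4.0.16 (R 4.3.3), checked on simulated data. filterByExpr left 16537 genes. After TMM scaling, the robust quasi-likelihood fit had a mean for each group and used all 12 libraries. The knockout was compared with wild type within HCC-LM3 and within Huh-7, those effects were compared with each other, and the wild types were compared across lines. Calls needed a two-sided adjusted p (Benjamini-Hochberg, all genes) under 0.05. At 3 against 3, the smallest p of an exact permutation test is 0.1. The alternatives were DESeq2 1.42.0 size factors and its Wald test, library totals, offsets for GC content and length (16480 genes), no filter and a stricter filter (at least 1 CPM in 3 libraries), the replicate block, each line alone, limma 3.58.1 (voom, and log2 of TPM plus 0.5 or 0.1), stricter calls and leaving out each library. The trends behind the offsets were fitted on protein-coding genes.

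The members and lists were chosen with earlier results of these data known. Named are all members, METTL5, the genes at their loci, up to 5 called genes of each list in each knockout whose mean was 1 CPM or more, and the 2 genes most correlated with each member; some of these are left out of the text. Positions and transcript sequences came from GENCODE 29 and microRNA sequences from RefSeq.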

Additional observations from a re-analysis of the deposited data

Results flagged for a closer look

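The knockout effect differed between the lines for 6 of the 7 members tested, by the interaction term of the edgeR model (HCC-LM3 effect minus Huh-7 effect, log2 scale, adjusted p under 0.05). The difference was 5.74 for KCNQ1OT1, 4.66 for MALAT1, 3.44 for NEAT1 and 2.93 for TUG1, each lower in Huh-7 KO. It was -1.32 for PVT1 and -0.89 for H19, in the other direction, and the call for H19 ended in 9 of 22 alternatives. Of all genes tested, 61.6% differed in this way, so a member that differs is not unusual in these libraries.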

How the results depend on the processing

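The count of members called in HCC-LM3 KO, 1 of 7, was the least stable: it was 2 with library totals, 4 with GC and length offsets, 2 with the DESeq2 Wald test, 2 with limma-voom, and 0 with the replicate block, limma on TPM with either pseudocount, an adjusted p under 0.01 or an absolute log2 change of at least 1, and it ran from 0 to 2 when each library was left out. The count was 6 in the other comparisons and ran over the alternatives from 4 to 7 in Huh-7 KO, from 4 to 7 for the difference of effects and from 5 to 7 between the wild types, within 1.5 times the main count. Among called values, reversed in sign were the HULC locus in Huh-7 KO (-0.094 with library totals, -0.60 and -0.67 with limma on TPM), the difference of effects of H19 (0.057 with library totals) and that of PVT1 (0.52 and 0.57 with limma on TPM). Of values not called, H19 in Huh-7 KO turned to -0.44 with library totals and -0.11 and -0.26 with limma on TPM. The difference of effects of the HULC locus turned to 0.61 and 0.68 with limma on TPM. The HCC-LM3 KO changes of PVT1 and the HULC locus, both near 0 with TMM, also crossed 0. That of PVT1 ran from -0.015 to 0.673 over the alternatives. The median change of all genes in Huh-7 KO was -0.30 with TMM, -1.40 with library totals and 0.00 with DESeq2 size factors, and in HCC-LM3 KO it was 0.00 with TMM and -0.12 with library totals, and members near that shift cannot be given a direction without choosing a scaling. The lower values of MALAT1, NEAT1, KCNQ1OT1 and TUG1 in Huh-7 KO were called under every alternative. No pairing by replicate number was seen: same-numbered wild-type and knockout libraries correlated at -0.106 to 0.083 across genes. Differently numbered ones correlated at -0.142 to 0.183. With so few libraries in a group, this cannot exclude a pairing. With the replicate block the HCC-LM3 change of MALAT1 was 0.86 (edgeR adjusted p = 0.0606). Depth limits H19 in Huh-7 and MEG3, which rest on few counts. The causes of these changes were not tested.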
